A study of Mus musculus with 24 samples.

Results

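Genes of splicing factors and spliceosome subunits were followed in mouse blastocysts whose mother or father was obese. The members were the genes whose symbol begins with Snrp, Sf3a, Sf3b, Srsf, Hnrnp, Prpf or Lsm, with the imprinted Snrpn left out, and each was read from the probe set with the highest mean among those that carry 1 gene symbol. This gave 73 of the 19938 genes on the arrays. All 73 were bright enough to be tested, so the filter on dim genes removed 0 of them. By role they were 6 genes of the Sm core, 13 of the U1 and U2 particles, 8 of the LSm ring, 7 other genes with Lsm symbols, 12 Prpf genes, 10 genes of SR proteins and 17 hnRNP genes. Lsmem1 and Lsmem2 encode membrane proteins that share only the first letters of the symbol with the LSm family, and they were kept because the rule on symbols took them. The RefSeq table held 80 protein-coding genes that fit the rule. The remaining 7 were not analysed here, among them Hnrnpa1, Hnrnpa3, Hnrnph3 and Snrpf, which share their probe sets with other symbols. The members lay on 19 chromosomes, and Hnrnph2 alone was X-linked.

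The spliceosome removes introns from precursor messenger RNA. It is built from small nuclear RNAs that are each wrapped by a ring of Sm or LSm proteins and joined by particle-specific proteins such as the SF3A and SF3B complexes of U2 and the PRPF proteins of the tri-snRNP. SR proteins bind exons and mostly favour the use of nearby splice sites, whereas hnRNP proteins coat nascent transcripts and often oppose them. Before implantation the embryo replaces the transcripts of the egg with its own, and those new transcripts need this machinery.

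Outbred NMRI mice were put on a fat-rich, calorie-rich diet or on its control diet when 3 weeks old; feeding lasted 9 weeks, and mating took place at 12 weeks with all animals on the control diet. The 6 groups were XX (female) and XY (male) blastocysts of lean parents (both on control diet), of an obese father with a lean mother, and of an obese mother with a lean father, collected 3.5 days after mating. Each group had 4 arrays, 24 in all, and each array held the lysate of 3 blastocysts of 1 sex from 1 mother, amplified directly from the lysate. The cohorts held 7 high-fat and 14 control animals, and no source used here names the mother behind each pool, so pools may share a mother and p-values measure only the spread between these pools. In pools of whole embryos, fewer cells of a type and less RNA per cell cannot be told apart.

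Levels are log2 intensities as deposited, and the brightness of a probe set depends on its probes, so levels were not compared between genes as amounts of RNA. The median of all values was 2.56. The signal spread of an array (the SD of all its values) ran from 1.27 to 1.81, and its group means were 1.38 ± 0.12 (SD, n = 4) in XY pools of lean parents and 1.56 ± 0.11 (n = 4) in XY pools of obese fathers, with the other groups between them. The widest arrays were array 22 (XX, obese father, 1.81) and array 12 (XY, obese father, 1.72). Of the blastocyst markers, median levels over the arrays ran from 3.61 (Gata3) to 6.77 (Krt8) for 8 trophectoderm genes, from 2.62 (Esrrb) to 5.92 (Pou5f1) for 7 epiblast genes and from 2.76 (Pdgfra) to 3.77 (Gata6) for 6 primitive endoderm genes, so that some lay near the median of the table. Among markers of other cells, 7 of 9 genes of cumulus and granulosa cells passed the filter (Amh at 4.10 the brightest), 6 of 7 of sperm (Prm1 at 4.01), 1 of 4 of blood and 2 of 6 of uterine and oviduct epithelium.

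No member passed the threshold in any of the 11 comparisons (limma, Benjamini-Hochberg adjusted p under 0.05 over 13311 genes). The description below therefore gives values and their spread.

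Most of these genes were bright in blastocysts. Of the 73 members, 55 lay above the median level of the tested genes, 45 above their 75th percentile and 29 above their 90th. The brightest members were Snrpg (SmG of the Sm ring; mean level over 24 arrays 8.20), Snrpc (a protein of U1 that helps it hold the donor splice site; 8.02) and Srsf3 (the smallest SR protein; 7.65). The dimmest were Lsm1 (2.25), whose product joins the cytoplasmic LSm ring of mRNA decay, Prpf18 (2.35), a factor of the later catalytic step, and Prpf39 (2.62), a U1-associated protein. By role the median level was 6.83 for the Sm core, 5.44 for hnRNP genes, 4.13 for U1 and U2 proteins, 4.09 for SR proteins, 4.02 for the LSm ring, 3.57 for the other Lsm genes and 2.99 for Prpf genes.

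The members also varied widely between pools of the same group. Their SD within groups had a median of 0.57 (range 0.17 to 1.88), against 0.26 for all tested genes. Tested genes above the 75th percentile of level had a median of 0.30, quartiles of 0.24 and 0.61 and a maximum of 2.09. The members' median lay between these quartiles, and the part of level in their spread was not tested. The widest were Snrpd3 (SmD3; 1.88), Lsm3 (a subunit of both LSm rings; 1.52) and Snrpd2 (SmD2; 1.41). Snrpd3 in XY pools of lean parents read 3.94, 7.04, 9.03 and 4.16, and in XX pools of obese mothers 7.53, 7.21, 3.79 and 6.78. Lsm3 in XY pools of obese mothers read 3.93, 7.97, 4.32 and 7.92, a pair of low pools and a pair of high ones. The steadiest were Snrpc (0.17), Lsmem1 (0.17) and Snrpa (a U1 protein that binds a stem-loop of U1 RNA; 0.18). The brightest probe sets of Snrpc and Snrpg were nearly equally bright. That of Snrpc stayed between 7.72 and 8.30 on all 24 arrays, while that of Snrpg ran from 5.21 to 9.97.

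The same arrays were high or low for most members. The median level of the 73 members on an array ran from 3.29 (array 4, XY, lean parents) to 5.61 (array 22), while the median of all tested genes stayed between 2.91 and 3.13. In XY pools of lean parents it reached from 3.29 to 4.33, and in XX pools of obese fathers from 3.47 to 5.61. Within groups, 63 of 73 members had a higher level on arrays of wider signal spread, against 4031 of the 13311 tested genes. The median slope was 3.24 log2 units per unit of spread for the members and -0.70 for all tested genes; without arrays 12 and 22 it was 2.22 (58 of 73 above 0) and -0.79. These slopes were looked at after the data were seen and are a description with no test, and the spread of an array is made from the same values. Of the 73 members, 45 lay above the 75th percentile of level. Slopes of other genes as bright were not compared, so the part of level was not tested.

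**Figure D1:**
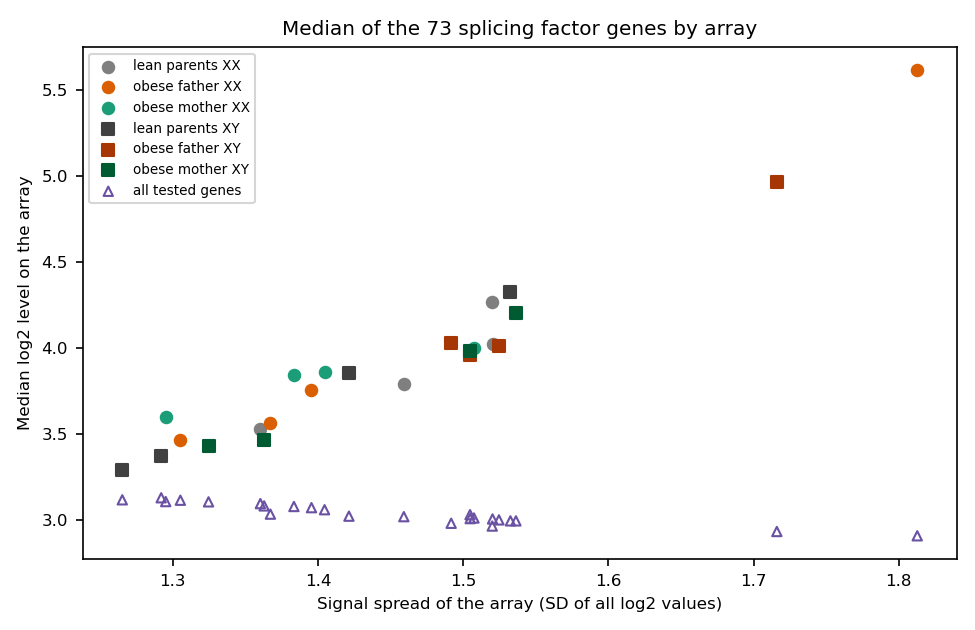
Each circle (XX) or square (XY) is the median log2 level of the 73 members on 1 array, and each open triangle the median of all 13311 tested genes on the same array, against the signal spread of that array (SD of all its log2 values). The members' median reaches 5.61 on the array of widest spread, and the triangles stay between 2.91 and 3.13.

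Roles differed in how they followed the spread. The median slope was 7.68 for the Sm core (5 of 6 genes above 0), 6.73 for the LSm ring (8 of 8), 5.71 for hnRNP genes (16 of 17), 4.62 for SR proteins (9 of 10), 2.55 for U1 and U2 proteins (10 of 13), 1.37 for Prpf genes (11 of 12) and 0.12 for the other Lsm genes (4 of 7). Snrpd3 (12.4), Lsm3 (10.0) and Snrpd2 (9.63) had the steepest slopes. Slopes below 0 were found for 10 members, from -2.97 for Sf3b4 to -0.57 for Snrpa. Among them was Snrpb (-1.71), whose product SmB sits in 1 ring with the products of Snrpd1, Snrpd2, Snrpd3, Snrpe and Snrpg, which all sloped upward. Sf3b4 belongs to the SF3B complex of U2, and Lsm10 (-1.45) and Lsm11 (-1.46) replace SmD1 and SmD2 in the U7 particle that trims histone transcripts. The Prpf and other Lsm genes were also the dimmest roles, and the part of level or of the arrays' signal range in this order was not tested.

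**Figure D2:**
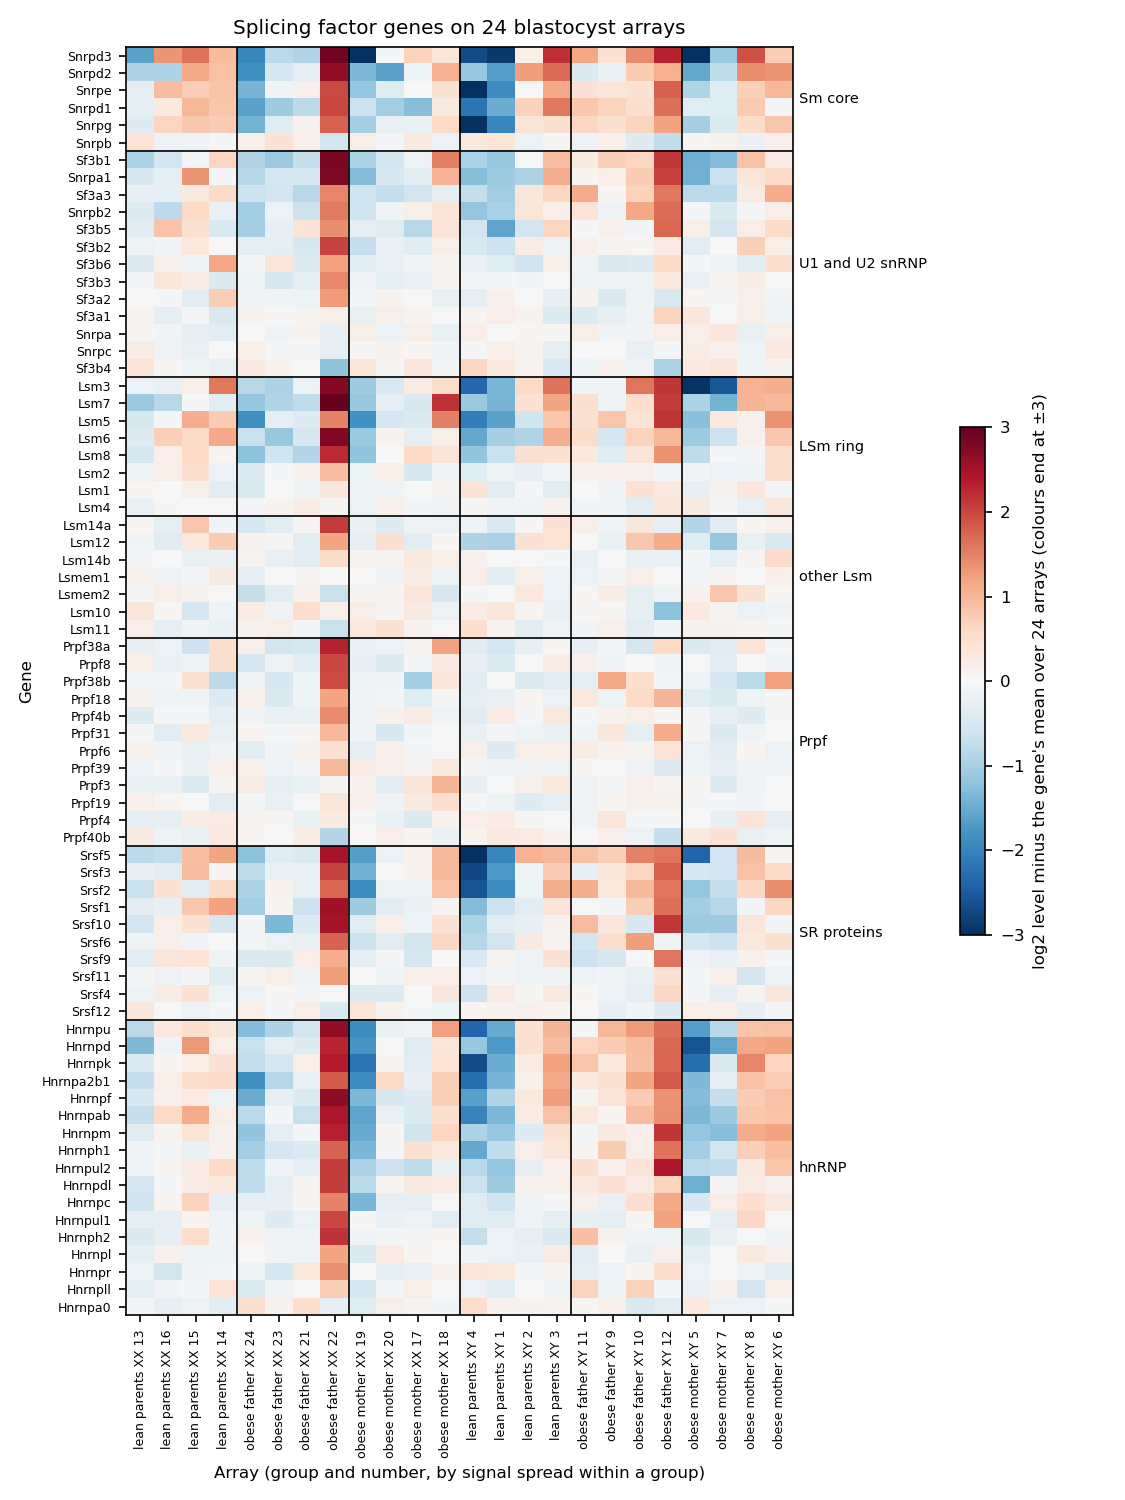
Colours give the log2 level of each member (rows, grouped by role) on each array (columns, grouped by parents and sex and ordered by signal spread within a group) minus the gene's mean over 24 arrays, with colours ending at 3 log2 units either way. Array 22 (XX, obese father) and array 12 (XY, obese father) are red for most genes, whereas Snrpb, Sf3b4, Snrpc and Snrpa do not share that pattern.

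Because members of several roles were high or low on the same arrays, the promoters of the members were read for short motifs. In RefSeq (GRCm38.p6), 63 of 73 members had a promoter entry, and the 250 bases before each start were searched on both strands. The ETS core, CCGGAAG, the letters bound by ETS-family activators of housekeeping genes, was found at 18 of 63 members (28.6%), against 12.4% of 10507 tested genes and 7.83% of all 27025 genes with an entry. The other motifs differed less between members and tested genes: the CCAAT box CCAAT was present in 46% and 38.8%, the GC box GGGCGG in 66.7% and 56.5%, the TATA box TATAAA in 7.94% and 9.61%, the CRE TGACGTCA in 4.76% and 2.66%, and the NRF1 palindrome in 1.59% and 1.4%. The median GC content was 60.4% in members and 58.8% in tested genes. Promoters of other genes as bright as the members were not compared, so the part of level in these shares was not tested. The ETS core was present at 10 of the 40 matched members with a slope above 2 and at 8 of the 23 with a lower slope. The promoters of Snrpg and Lsm5, which varied widely between pools, and of Prpf19, which hardly did, are printed because all of them hold the core. The plus-strand window of Snrpg is chr6:86371290-86371539, the minus-strand window of Lsm5 is chr6:56704700-56704949, and the plus-strand window of Prpf19, before the first of its 2 annotated starts, is chr19:10894981-10895230. Capitals mark the ETS core or, in Lsm5, its reverse complement.
Snrpg: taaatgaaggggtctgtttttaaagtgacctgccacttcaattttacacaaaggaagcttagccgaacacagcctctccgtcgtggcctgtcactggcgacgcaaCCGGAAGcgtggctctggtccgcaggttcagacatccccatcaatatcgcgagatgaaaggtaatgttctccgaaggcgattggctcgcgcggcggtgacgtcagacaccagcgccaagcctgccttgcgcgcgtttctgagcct
Lsm5: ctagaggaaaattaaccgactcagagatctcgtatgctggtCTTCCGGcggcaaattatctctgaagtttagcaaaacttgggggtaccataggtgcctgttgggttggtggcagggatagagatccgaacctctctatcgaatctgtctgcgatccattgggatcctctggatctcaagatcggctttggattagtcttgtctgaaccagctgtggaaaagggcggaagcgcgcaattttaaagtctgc
Prpf19: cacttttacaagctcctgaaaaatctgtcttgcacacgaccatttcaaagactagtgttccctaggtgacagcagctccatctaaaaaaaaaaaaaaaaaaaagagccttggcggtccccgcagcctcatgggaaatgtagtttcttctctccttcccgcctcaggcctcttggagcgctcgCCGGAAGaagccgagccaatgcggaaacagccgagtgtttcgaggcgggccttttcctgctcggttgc
The core lies 145 to 139 bases before the start in Snrpg, 209 to 203 in Lsm5 and 68 to 62 in Prpf19. Snrpg had an SD within groups of 1.03 and a slope of 6.80, Lsm5 of 1.14 and 7.59, and Prpf19, a ubiquitin ligase that acts in the activated spliceosome, of 0.18 and 0.44. Genes with this core were thus found at both ends of the range of variation, and a match of letters is not a measured binding site.

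The first comparison set males with an obese father against males with lean parents. None of the 73 members passed (0.00751% of all tested genes did), and the smallest limma adjusted p of a member was 0.316. Of the members, 54 had a difference above 0, and their median was 0.44 log2 units, against -0.11 over all tested genes. At an unadjusted p under 0.05, 10 members were higher (4.3% of all tested genes) and 0 lower (10.4%). Prpf18, counted among the 10, passed the filter on dim genes only through arrays of obese fathers, so its difference is no support. The 5 members whose groups did not overlap with obese-father males higher (1.91% of all tested genes) were Snrpg, Hnrnpul2, Hnrnpdl, Hnrnph2 and Lsm2, and in Srsf12 the obese-father males lay lower without overlap (6.63%).

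The Sm core had the largest median difference, at 1.51 with 5 of 6 genes above 0. Snrpg read 6.24, 8.57, 8.68 and 5.21 in males of lean parents and 8.69, 8.86, 8.81 and 9.40 in males of obese fathers. The obese-father pools were close together, and the lean pools split into a pair near them and a pair far below. The difference was 1.76 (SE 0.67; limma unadjusted p = 0.0150, adjusted p = 0.316), or 1.11 without lean array 4, and its other probe set gave 0.94. Snrpe (SmE) read 5.52, 7.43, 8.57 and 2.96 against 7.80, 7.87, 7.88 and 9.23, a difference of 2.07 (SE 0.84; limma adjusted p = 0.316) with overlapping groups. Snrpd3 had the largest difference of all members, 2.13, but with an SE of 1.21 (limma adjusted p = 0.374). Snrpb differed the other way, with 5.40, 4.88, 5.09 and 5.37 against 5.20, 4.67, 4.89 and 4.31 (-0.42, SE 0.20, or -0.27 without array 12; limma adjusted p = 0.341). The 5 probe sets of Snrpd2 disagreed, with differences from -0.36 to 0.84.

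Among SR proteins, whose median difference was 0.81 with 9 of 10 genes above 0, the smallest p belonged to Srsf2 (SC35, which binds exonic enhancers and also acts in transcription elongation). It read 4.25, 5.95, 7.19 and 3.52 in males of lean parents and 6.42, 7.09, 7.19 and 7.70 in males of obese fathers. Lean array 3 reached the level of the obese-father pools, and the other lean pools lay below all of them. The difference was 1.87 (SE 0.72; limma adjusted p = 0.316). Srsf3 (1.59, SE 0.68) and Srsf5 (1.94, SE 0.90) also had unadjusted p under 0.05, with limma adjusted p of 0.318 and 0.331. Srsf12, a dim member with a repressing role in splicing, read 2.93, 2.97, 2.88 and 2.88 against 2.59, 2.74, 2.81 and 2.43 (-0.27, SE 0.15; limma unadjusted p = 0.0841).

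The hnRNP genes had a median difference of 0.89, with 14 of 17 above 0. Hnrnpul2, a nuclear protein of RNA processing and the DNA damage response, read 2.46, 3.37, 3.75 and 2.82 in males of lean parents and 3.75, 4.01, 4.11 and 6.04 in males of obese fathers, where array 12 stood far above the rest. The difference was 1.38 (SE 0.52; limma adjusted p = 0.316), or 0.86 without array 12. The X-linked Hnrnph2 read 3.74, 3.61, 3.45 and 3.18 against 4.00, 3.81, 4.81 and 3.78 (0.60, SE 0.36; limma unadjusted p = 0.106), and its other probe set, of similar brightness, gave 0.07. Hnrnpk, which binds C-rich RNA, differed by 1.63 (SE 0.81; limma unadjusted p = 0.0583). Hnrnpa0, which binds AU-rich elements, read 3.01, 3.03, 2.98 and 3.44 against 3.06, 2.49, 2.96 and 2.60 (-0.34, SE 0.18; limma adjusted p = 0.355).

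In the LSm ring the median difference was 0.81 with 7 of 8 genes above 0. Lsm5 read 4.99, 6.01, 7.43 and 4.52 against 7.42, 6.97, 7.05 and 8.74 (1.81, SE 0.74; limma adjusted p = 0.316), with lean array 3 among the obese-father values. The U1 and U2 proteins had a median of 0.15 (8 of 13 above 0), and Snrpb2 (U2B″; 1.19, SE 0.47) and Sf3a3 (a subunit of SF3A; 1.06, SE 0.48) were its members with unadjusted p under 0.05. Snrpc (-0.06) and Snrpa (-0.03), both U1 proteins, had almost equal means in the groups. The dimmer probe sets of Snrpc differed from its brightest, at 0.38 and -0.33. The Prpf genes had a median of 0.14 (8 of 12 above 0) with Prpf18 at 0.61 (SE 0.26), and the other Lsm genes a median of -0.06 (3 of 7 above 0), with Lsm10 at -0.47 (SE 0.23; limma adjusted p = 0.342). Lsm10 read 4.26, 4.02, 3.73 and 4.16 against 3.96, 3.65, 3.97 and 2.70, with array 12 the lowest, and the difference was -0.18 without array 12.

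**Figure D3:**
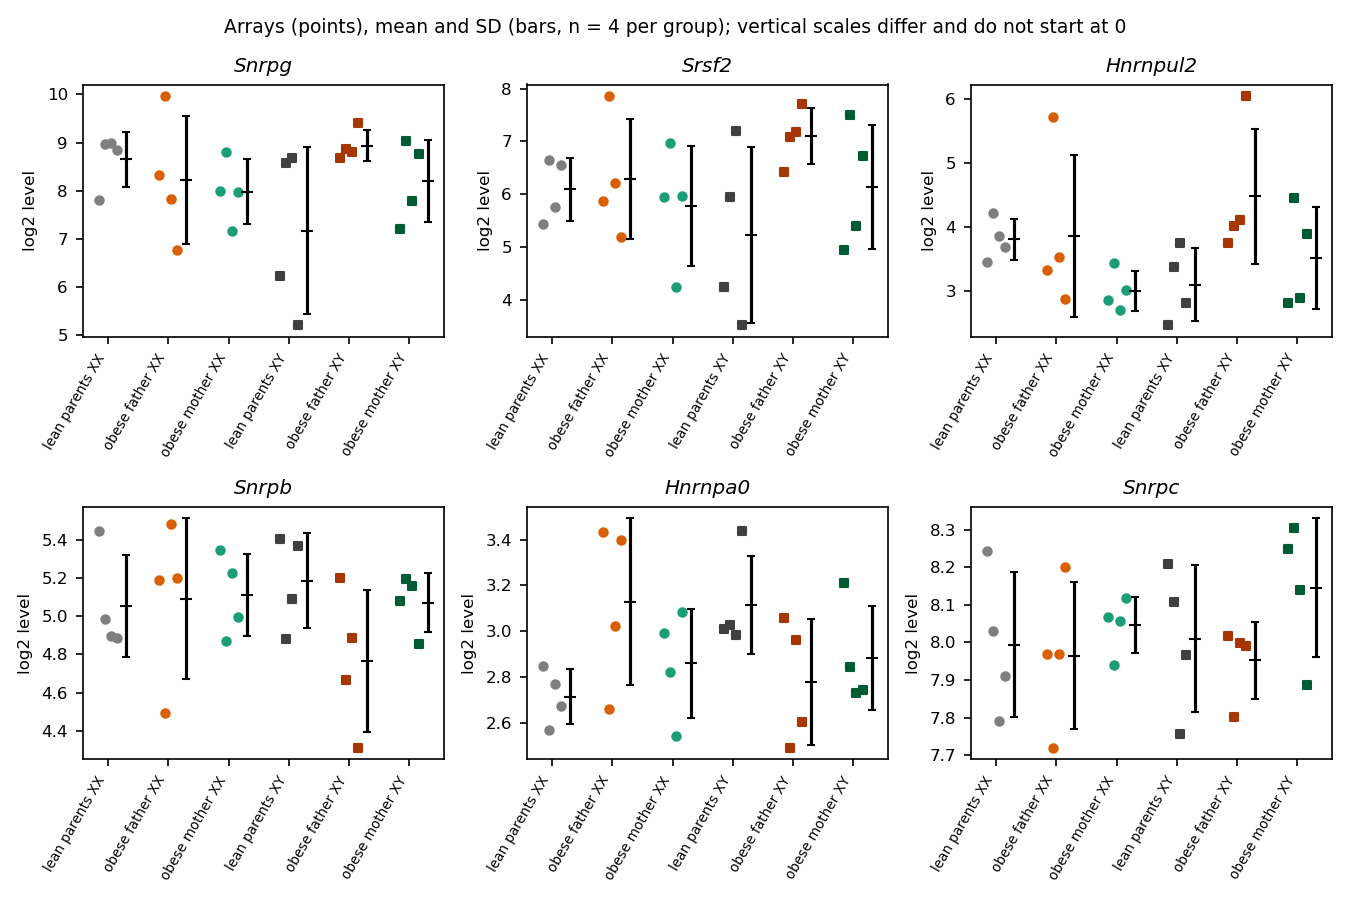
Points are the log2 levels of single arrays for 6 members, with the mean and SD of each group (n = 4) beside them; the vertical scales differ and do not start at 0. Snrpg, Srsf2 and Hnrnpul2 are higher in most obese-father males than in lean males with wide spread, Snrpb and Hnrnpa0 show smaller differences the other way, and Snrpc stays between 7.72 and 8.30.

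These values rested on few arrays. The 10 members with higher values at an unadjusted p under 0.05 became 0 without lean array 1, 16 without lean array 2, 23 without lean array 3, 3 without lean array 4 and 3 without array 12, whereas the median difference of the members stayed between 0.34 and 0.53. Here and below, shares over all tested genes were not computed for fits with an array left out. Such counts show only how the number depends on single arrays and are not set against other genes. With the signal spread of each array as a covariate, the members' median was -0.09 (all tested genes -0.02). At an unadjusted p under 0.05, 0 members were higher (2.49% of all tested genes in that fit) and 5 lower (4.69%). In that fit Snrpg, Srsf2 and Hnrnpul2 differed by 0.53, 0.58 and 0.34. After quantile normalization without the covariate, Snrpg, Srsf2 and Hnrnpul2 differed by 1.002, 1.47 and 1.24. Snrpb, Lsm10 and Hnrnpa0 then differed by -0.83, -0.52 and -0.28. The mean spread itself differed between the groups (1.38 in lean and 1.56 in obese-father pools), so the covariate fit cannot separate spread from group. The marker lists also differed between these groups: 7 of 8 trophectoderm markers lay above 0 (median 0.47, summed level 34.5 to 40.0 in lean and 37.7 to 44.9 in obese-father pools), and all 7 tested cumulus and granulosa markers lay below 0 (median -0.34, summed level of the 9 on the arrays 24.6 to 28 against 22.4 to 25.04). Of all tested genes, 8882 of 13311 lay below 0. So did 5 of 6 sperm, 2 of 2 uterine and oviduct, 1 of 1 blood, 3 of 7 epiblast and 3 of 6 primitive endoderm markers. In males of obese mothers against lean parents, 7 of 8 trophectoderm markers also lay above 0 (median 0.10), and 4 of 7 cumulus and granulosa markers below 0. The part of the array signal range and of these cell types in the result was not tested.

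Other genes of the pathway, which are no members, were read in the same comparison, where 4.3% of all tested genes were higher and 10.4% lower at an unadjusted p under 0.05, and none passed the adjusted threshold. Of 66 tested core spliceosome genes, 9 were higher and 1 lower at an unadjusted p under 0.05 (median 0.24), with U2af2 (the large U2AF subunit, which binds the polypyrimidine tract) at 0.70 (SE 0.21; limma adjusted p = 0.316) and Bud13 at -0.36 (SE 0.14). Of 33 other splicing regulators, 5 were higher and 2 lower (median 0.25), with Celf1, a binder of GU-rich RNA, at 2.39 (SE 0.66; limma adjusted p = 0.316) and Esrp1, a regulator of epithelial splicing, at -0.32 (SE 0.15). The 5 kinases of SR proteins had 0 in each direction and a median of -0.15, with Srpk1 at 0.17 (SE 0.44) and Srpk2 at -0.18 (SE 0.12). Of 16 snRNP assembly genes, 2 were higher and 1 lower (median 0.21), with Ncbp2, a subunit of the cap-binding complex, at 1.10 (SE 0.43) and Prmt5, the methyltransferase that modifies Sm proteins, at -0.51 (SE 0.17). Of 12 exon junction complex genes, 0 were at an unadjusted p under 0.05 in each direction (median 0.26), with Rnps1 at 0.27 (SE 0.15) and Acin1 at -0.02 (SE 0.19).

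In females, pools with an obese father were set against pools with lean parents. None of the 73 members passed (0% of all tested genes did), with a smallest limma adjusted p of 0.9997; 2 were higher (1.95% of all tested genes) and 1 lower (0.886%) at an unadjusted p under 0.05. The median of the members was 0.11, against 0.02 over all tested genes, with 49 of 73 above 0. It was -0.23 without array 22, with 1 member higher and 4 lower, and 0.28 without array 24. The count of 2 higher was 5 without array 23 and 0 without lean array 14 or 16, and the count of 1 lower was 0 without lean array 15 or 16 or array 24. The groups overlapped in all 73 (0.811% of all tested genes were higher and 0.413% lower without overlap). Hnrnpa0 read 2.85, 2.57, 2.77 and 2.67 in females of lean parents and 3.43, 2.66, 3.02 and 3.40 in females of obese fathers (0.41, SE 0.18; limma unadjusted p = 0.0296). Srsf11, an SR-related protein, read 2.79, 2.47, 2.78 and 2.72 against 2.72, 4.08, 3.02 and 2.90 (0.49, SE 0.22), with array 22 as the highest, and Hnrnpr read 2.67, 2.79, 2.76 and 2.27 against 3.15, 4.22, 2.36 and 2.67 (0.48, SE 0.27). Without array 22 the differences of Srsf11 and Hnrnpr were 0.19 and 0.11. On the lower side stood Lsmem2 (-0.47, SE 0.20; limma unadjusted p = 0.0301), Snrpd1 (SmD1; -0.82, SE 0.71, or -1.61 without array 22) and Prpf40b, a U1-associated protein (-0.19, SE 0.22). By role, the Sm core had a median of -0.42 (1 of 6 above 0), the Prpf genes 0.23 (11 of 12) and the hnRNP genes 0.22 (14 of 17). The probe sets of Lsm5 disagreed here, with differences from -0.58 to 0.74. Of the marker lists, 7 of 8 trophectoderm genes lay above 0 (median 0.23, summed level 35.9 to 39.8 in lean and 36.5 to 46.7 in obese-father pools) and all 7 tested cumulus and granulosa genes below 0 (median -0.20, summed level of the 9 on the arrays 25.1 to 27.4 against 21.5 to 26.6), and their part was not tested. Of all tested genes, 6000 of 13311 lay below 0, as did 3 of 6 sperm, 1 of 2 uterine and oviduct and 0 of 1 blood markers.

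Whether the obese-father difference itself differed between the sexes was tested as the XY difference minus the XX difference. None of the 73 members passed (0%), and the smallest limma adjusted p was 0.654; 3 members were higher (1.86% of all tested genes) and 2 lower (5.68%) at an unadjusted p under 0.05. Snrpg had an XY difference of 1.76 and an XX difference of -0.43, which differ by 2.20 (SE 0.94; limma adjusted p = 0.654), and Lsm5 gave 2.39 (SE 1.04), although its dimmest probe set gave 0.91 in males and 0.74 in females. The probe sets of Snrpd2 ran from -0.51 to 0.71. Hnrnpa0 went the other way, with -0.34 in males and 0.41 in females, which differ by -0.75 (SE 0.25; limma unadjusted p = 0.00693, adjusted p = 0.654), and Lsm10 gave -0.72 (SE 0.33), or -0.43 without array 12. The members' median was 0.23, against -0.14 over all tested genes, and ran from 0.07 without array 24 to 0.61 without array 22. The count of 3 became 25 without array 22, 10 without lean XY array 3, 5 without lean XX array 13, 1 without lean XX array 14 or array 23, and 0 without lean XX array 15, lean XY array 1 or 4, or array 12 or 24, and after adding signal spread as a covariate it was 0 (2.78% of all tested genes in that fit), with 9 lower (7.1%).

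**Figure D4:**
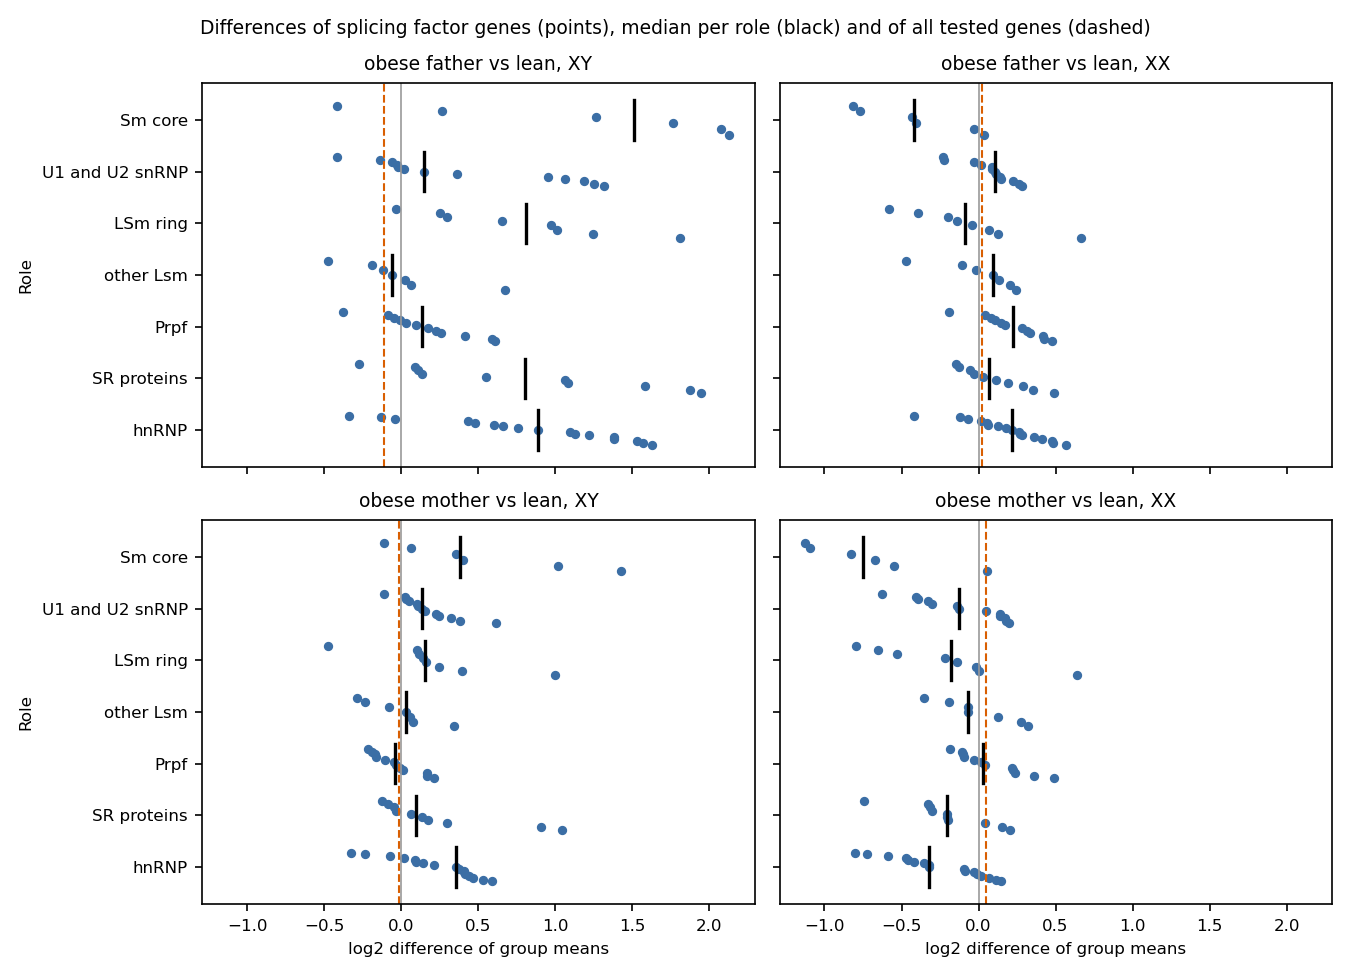
Each point is the log2 difference of 1 member between group means (obese father or obese mother minus lean parents, in XY or XX), arranged by role, with the median of the role as a black bar and that of all tested genes as a dashed line. In males of obese fathers the medians of the Sm core (1.51), hnRNP genes (0.89), LSm ring (0.81) and SR proteins (0.81) lie right of the dashed line at -0.11, and in females of obese mothers the Sm core lies at -0.75.

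Males with an obese mother were set against the same lean arrays as above. None of the 73 members passed (0%), with a smallest limma adjusted p of 0.9999, and 0 were higher (0.601% of all tested genes) and 0 lower (1.1%) at an unadjusted p under 0.05. The median was 0.12, against -0.01 over all tested genes, with 52 of 73 above 0, and without 1 array it ran from -0.0039 (lean array 4) to 0.24. The count of 0 higher was 5 without lean array 3 and 2 without lean array 2. Snrpe read 6.52, 8.44, 7.07 and 8.16 in males of obese mothers (1.43, SE 0.84, or 0.37 without lean array 4), and Srsf3 read 7.16, 8.23, 7.07 and 8.54 (1.04, SE 0.68, or 0.46 without lean array 4). Both groups spread over more than the difference, and 0 members were higher (0.548%) or lower (0.856%) without overlap. Lsmem2 was at 0.35 (SE 0.20), Hnrnpa0 at -0.23 (SE 0.18), Hnrnpr at -0.33 (SE 0.27) and Prpf6, a bridging protein of the tri-snRNP, at -0.19 (SE 0.16). Role medians were 0.38 for the Sm core (5 of 6 above 0), 0.36 for hnRNP genes (14 of 17), 0.15 for the LSm ring (7 of 8) and -0.04 for Prpf genes (4 of 12).

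Females with an obese mother were then set against females with lean parents. None of the 73 members passed (0%), with a smallest limma adjusted p of 0.999; 1 was higher (1.65% of all tested genes) and 0 lower (0.541%) at an unadjusted p under 0.05. The median was -0.11, against 0.05 over all tested genes, with 26 of 73 above 0, and -0.21 to -0.02 without 1 array. The count of 1 was 0 without lean array 15 or obese-mother array 17 or 18, and 2 without lean array 13 or obese-mother array 20. Prpf3, a tri-snRNP protein that binds the U4 and U6 RNAs, read 2.42, 2.70, 2.24 and 2.46 in females of lean parents and 3.04, 3.66, 2.76 and 2.31 in females of obese mothers (0.49, SE 0.20; limma unadjusted p = 0.0257), or 0.25 without obese-mother array 18. Its obese-mother pools included both the highest value and one within the lean range. Lsm14b, a protein of RNA granules in oocytes, read 3.53, 3.38, 3.34 and 3.58 against 3.87, 3.74, 3.66 and 3.66 without overlap (1.89% of all tested genes), a difference of 0.28 (SE 0.17; limma unadjusted p = 0.111). Hnrnpul2 read 3.45, 4.22, 3.86 and 3.69 against 2.87, 3.43, 2.70 and 3.02, lower without overlap (0.639%), at -0.80 (SE 0.52; limma unadjusted p = 0.140). Snrpd1 read 6.55, 7.65, 7.83 and 7.08 against 5.54, 7.09, 6.19 and 5.78 (-1.13, SE 0.71), Sf3a3 differed by -0.63 (SE 0.48) and Lsm11 by 0.32 (SE 0.18). The Sm core had a median of -0.75 (1 of 6 above 0), hnRNP genes -0.32 (4 of 17) and SR proteins -0.21 (3 of 10). The difference between the sexes in the obese-mother effect was passed by 0 members (0%), with a smallest limma adjusted p of 0.9999; 0 were higher (0.819%) and 1 lower (1.77%) at an unadjusted p under 0.05. The lower one was Prpf3 (-0.66, SE 0.29), and Snrpe (2.26, SE 1.19), Snrpg (1.69, SE 0.94) and Hnrnpa0 (-0.38, SE 0.25) followed.

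Obese mothers were also set against obese fathers. In males 0 members passed (0.00751% of all tested genes did), with a smallest limma adjusted p of 0.573, and 0 were higher (6.27%) and 3 lower (2.08%) at an unadjusted p under 0.05, with a median of -0.33 against 0.09 over all tested genes. Prpf18 read 2.01, 2.39, 1.92 and 2.23 in males of obese mothers and 2.21, 2.95, 2.67 and 3.36 in males of obese fathers (-0.66, SE 0.26), and the others were Lsm12 (-0.96) and Prpf6 (-0.36). Prpf18 reached at most 2.46 in groups without an obese father. It passed the filter on dim genes only through obese-father arrays, so its difference is no support. Lsm12, Prpf6 and Prpf4b, a kinase of the tri-snRNP, lay lower without overlap (1.28%) and 0 members higher (5.57%), and Lsmem2 stood on the higher side (0.41, SE 0.20). The count of 3 was 0 without array 12 or obese-mother array 7, and 6 to 8 without array 9 or obese-mother array 6 or 8. In females 0 members passed (0%) and 0 had an unadjusted p under 0.05 in each direction (1.97% higher and 1.28% lower); the groups overlapped in all 73 members (0.917% of all tested genes were higher and 0.684% lower without overlap). The median was -0.28, or 0.08 without array 22, with Lsmem2 at 0.40 (SE 0.20) and Hnrnpc, which binds uridine tracts of introns, at -0.73 (SE 0.37; limma adjusted p = 0.975).

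Males and females were compared within each kind of parents, and 0 members passed in lean parents (0%), obese fathers (0.00751%) and obese mothers (0%). In lean parents the median was -0.17 (-0.30 to -0.08 without 1 array) against 0.06 over all tested genes, with 1 member higher (2.52%) and 2 lower (0.849%) at an unadjusted p under 0.05. Hnrnpa0 read 3.01, 3.03, 2.98 and 3.44 in males and 2.85, 2.57, 2.77 and 2.67 in females, higher in males without overlap (1.71% of all tested genes; 0.40, SE 0.18; limma adjusted p = 0.992). Snrpe (-1.88, SE 0.84) and Snrpg (-1.48, SE 0.67) were the lower ones; their 4 female pools lay between 7.15 and 8.36 and between 7.81 and 9.001, while lean male array 4 was at 2.96 and 5.21. The probe sets of Lsm5 ran from -1.20 to 0.31 between the sexes of lean parents. The count of 2 was 7 without lean male array 3 1 without lean female array 14 and 0 without lean male array 1 or 4 or lean female array 15 or 16, and Hnrnpa0 lost its unadjusted p under 0.05 without lean female array 14 or 16 or lean male array 4. With obese fathers the median was 0.12 against -0.07 and the probe sets of Snrpd2 ran from -0.26 to 0.75, with 0 members higher (1.47%) and Lsm10 the 1 lower (3.94%; -0.56, SE 0.23, or -0.27 without array 12; limma adjusted p = 0.843), Sf3a3 at 1.001 (SE 0.48), and 20 members higher without array 22; the sexes overlapped in all 73 (0.616% of all tested genes were higher and 1.43% lower without overlap). With obese mothers the median was 0.07 against -0.01, with 0 in each direction (0.706% each); Lsmem2 was at 0.37 (SE 0.20), Prpf3 at -0.41 (SE 0.20), and Prpf39 lay lower in males without overlap (0.894%), while 0 members lay higher (0.766%).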

How the data were processed

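Log2 intensities per probe set were deposited by the authors. The submitters' processing notes name RMA and affy, and no source used here gives their versions, the probe set definition or the build. RMA adjusts the background, normalizes between arrays and summarises the probes of a set. The deposited arrays still differed, with medians from 2.36 to 2.65 and signal spread from 1.27 to 1.81. The table held 35556 probe sets on 24 arrays, with 0 missing values. GEO's platform annotation gave 1 symbol to 21789 sets, several to 1621 and none to 12146, and gene numbers of 21698 sets were found in a RefSeq table (GRCm38.p6). Genes above the median of all values on at least 4 arrays were tested, 13311 of 19938 genes. A mean per group was fitted to all 24 arrays with limma 3.58.1 (lmFit, eBayes) in R 4.3.3 without covariates, and a gene was called at a Benjamini-Hochberg adjusted p under 0.05 over all tested genes. The procedure was tried on simulated data with independent noise for every gene and array. Those data lacked arrays that were high or low for most members, so the trial does not bear on that pattern.

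Members and lists were chosen with earlier results of these data known. Genes named are, by smallest unadjusted p on each side, 3 members in each obese-versus-lean comparison, 2 in tests between the sexes' effects and 1 elsewhere, with the 3 brightest, dimmest, widest and steadiest members, 1 gene per side of each pathway list, and members whose probe sets disagree in sign by over 1 log2 unit. Members whose groups do not overlap, those with an unadjusted p under 0.05, members of the Sm core and the printed promoters were added after values were seen. The alternatives were no filter or a stricter filter, averaging of probe sets per gene, array weights, a robust prior with trend, signal spread as a covariate, centring on medians, quantile normalization, the compared groups alone, a threshold of 0.10, omission of the 2 widest arrays or of the Lsmem genes, and leaving out each array. The number of arrays limits the precision.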

Additional observations from a re-analysis of the deposited data

Results flagged for a closer look

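Of 132 group values of a gene or of the members' median, 10 held an array whose gap to the nearest of the others, as a share of the group's range, passed Dixon's critical value. Chance passes it in about 1 in 20 groups of independent values, and these values share arrays. The median level of the members was 5.61 on array 22 of XX pools with obese fathers, above the other arrays of the group. It was 4.96 on array 12 of XY pools with obese fathers. Snrpg was low on array 13 of XX pools with lean parents, at 7.81. Snrpe was low on the same array, at 7.15. Snrpe was high on array 12, at 9.23. Hnrnpul2 was high on array 12, at 6.04. Hnrnpa0 was high on array 4 of XY pools with lean parents, at 3.44. Prpf6 was low on array 1 of the same group, at 2.63. Lsm14b was high on array 9 of XY pools with obese fathers, at 3.57. Sf3a3 was high on array 22, at 5.62.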

How the results depend on the processing

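In every alternative and with each array left out, 0 members passed the adjusted threshold in all 11 comparisons. The members' median difference moved by less than the SD of their median between pools of a group (0.54), though its sign was not fixed. The largest median difference was itself 0.44, so a shift under 0.54 does not show that a median was stable. With signal spread as a covariate the members' median was -0.09 (from 0.44) in XY pools of obese fathers against lean parents. It changed sign in most comparisons. Counts at an unadjusted p under 0.05 moved most: the 10 in XY pools of obese fathers were 22 with array weights and 21 with the compared groups alone. Smaller changes were 9 with the stricter filter, which removed Prpf18, and 7 without the 2 widest arrays. Quantile normalization gave 10 higher and 4 lower there. Shares over all tested genes were not computed for these fits, so their counts are not read as a result about the members. In XX pools of obese fathers against lean parents, Prpf40b (-0.19) turned to 0.079 with array weights, 0.055 without the 2 widest arrays and 0.055 without array 22, over a range of -0.32 to 0.055 with 1 array left out; the cause was not tested. Of counts at an unadjusted p under 0.05, 82 moved under an alternative and 95 with an array left out. Values for single genes changed sign in 2 cases under an alternative and in 1 with an array left out. Of both kinds together, 641 and 512 were classed as unmoved. No paired analysis was possible because the array numbers differ in every group, so the groups share no replicate numbers. Dim members near the table's median of 2.56 are limited by their signal.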
